A study of Homo sapiens with 4 samples.

Results

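HOX genes and their TALE cofactors were followed in U2OS cells, a human osteosarcoma line, after siRNA against BRPF3. Members were taken by gene symbol: any numbered gene of the HOXA, HOXB, HOXC or HOXD clusters, and any numbered MEIS or PBX gene. The array annotation named 33 of them among its 14884 genes, out of 46 such symbols in a RefSeq gene table (GRCh38.p14). All 10 HOXB genes, all 9 HOXD genes, 7 of 9 HOXC genes, all 3 MEIS genes and 3 PBX genes were named, but only HOXA2 of 11 HOXA genes. The other HOXA genes, HOXC5 and HOXC6 were not analysed here. Cells received a scrambled control siRNA (2 arrays) or siRNA to BRPF3 (2 arrays), each at 50 nM with a lipid reagent, and RNA was taken after 48 hours. The labels name no genetic change in either group. BRPF3 itself was not analysed here, so its depletion was not checked on these arrays.

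HOX genes encode homeodomain transcription factors that give cells along the head-to-tail axis their position. Each cluster runs from low-numbered genes, active in anterior regions, to high-numbered genes, active in posterior regions, and a cell keeps its pattern into adult life through Polycomb repression and trithorax activation. MEIS and PBX proteins are homeodomain factors of the TALE class that bind DNA together with HOX proteins and sharpen their choice of site. BRPF3 belongs to a family of scaffold proteins of MYST histone acetyltransferases. Its relative BRPF1 works with KAT6A, an acetyltransferase known for maintaining HOX expression in embryos, whereas BRPF3 is best known with KAT7.

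Values are log2 RMA values, which summarise the brightness of the probes of a probe set after normalization between arrays. The number of arrays limits the precision. Over the tested genes the difference between arrays had an SD of 0.17 within the control group, 0.20 within the BRPF3 siRNA group and 0.31 to 0.32 across the groups. Among fixed markers of the labelled cell type, VIM (mean 10.42), SPP1 (6.80) and the osteoblast regulator RUNX2 (6.39) lay above the median of all probe sets, 4.59, SP7 (4.66) lay close to it and TWIST1 (3.20) lay below. ALPL, BGLAP, CDH2, COL1A1, COL1A2 and SPARC, also listed for that cell type, were not analysed here. At or above the median of all probe sets were 5 of 8 epithelial, 2 of 3 leukocyte, 1 of 4 endothelial and 3 of 4 neural markers. Among these, epithelial KRT18 (mean 10.16) and EPCAM (8.05) and neural NES (8.95) and SOX2 (7.80) lay higher than SPP1 and RUNX2. The mean over the epithelial markers was 5.81 to 5.87 on the control arrays and 5.81 to 5.84 on the BRPF3 siRNA arrays, and that over the leukocyte markers was 5.20 to 5.35 and 5.03 to 5.07. KRT18 fell among 5 tested epithelial markers and LAPTM5 among 2 tested leukocyte markers, against 9.44% of all tested genes. Of the tested endothelial and neural markers 0 fell. The leukocyte markers CD14 and SPI1 were higher on each BRPF3 siRNA array than on each control array (log2 differences 0.11 and 0.08). The part of other cell types in the results was not tested.

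The HOX pattern of these cells was described first, by setting each probe set against the median of all probe sets. Probe sets differ in affinity, so a higher value for 1 gene than for another is no order of transcript abundance. Of the 33 members 27 (81.8%) lay at or above the median, against 71.9% of all named genes, and 15 (45.5%) lay at or above the 75th percentile of 6.43, against 43.0% of all named genes. By position, 3 of 6 anterior genes (paralogs 1 to 3), 8 of 9 central genes (paralogs 4 to 8) and 10 of 12 posterior genes (paralogs 9 to 13) reached the median. All 7 HOXC genes and all 6 TALE genes did so, as did 8 of 10 HOXB genes and 6 of 9 HOXD genes. The 6 members below it were HOXA2 (mean 3.40), HOXB1 (4.35), HOXB4 (4.16), HOXD3 (4.32), HOXD12 (4.17) and HOXD13 (4.11). These dim genes were left out of the test, because RMA compresses differences near background.

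**Figure D1:**
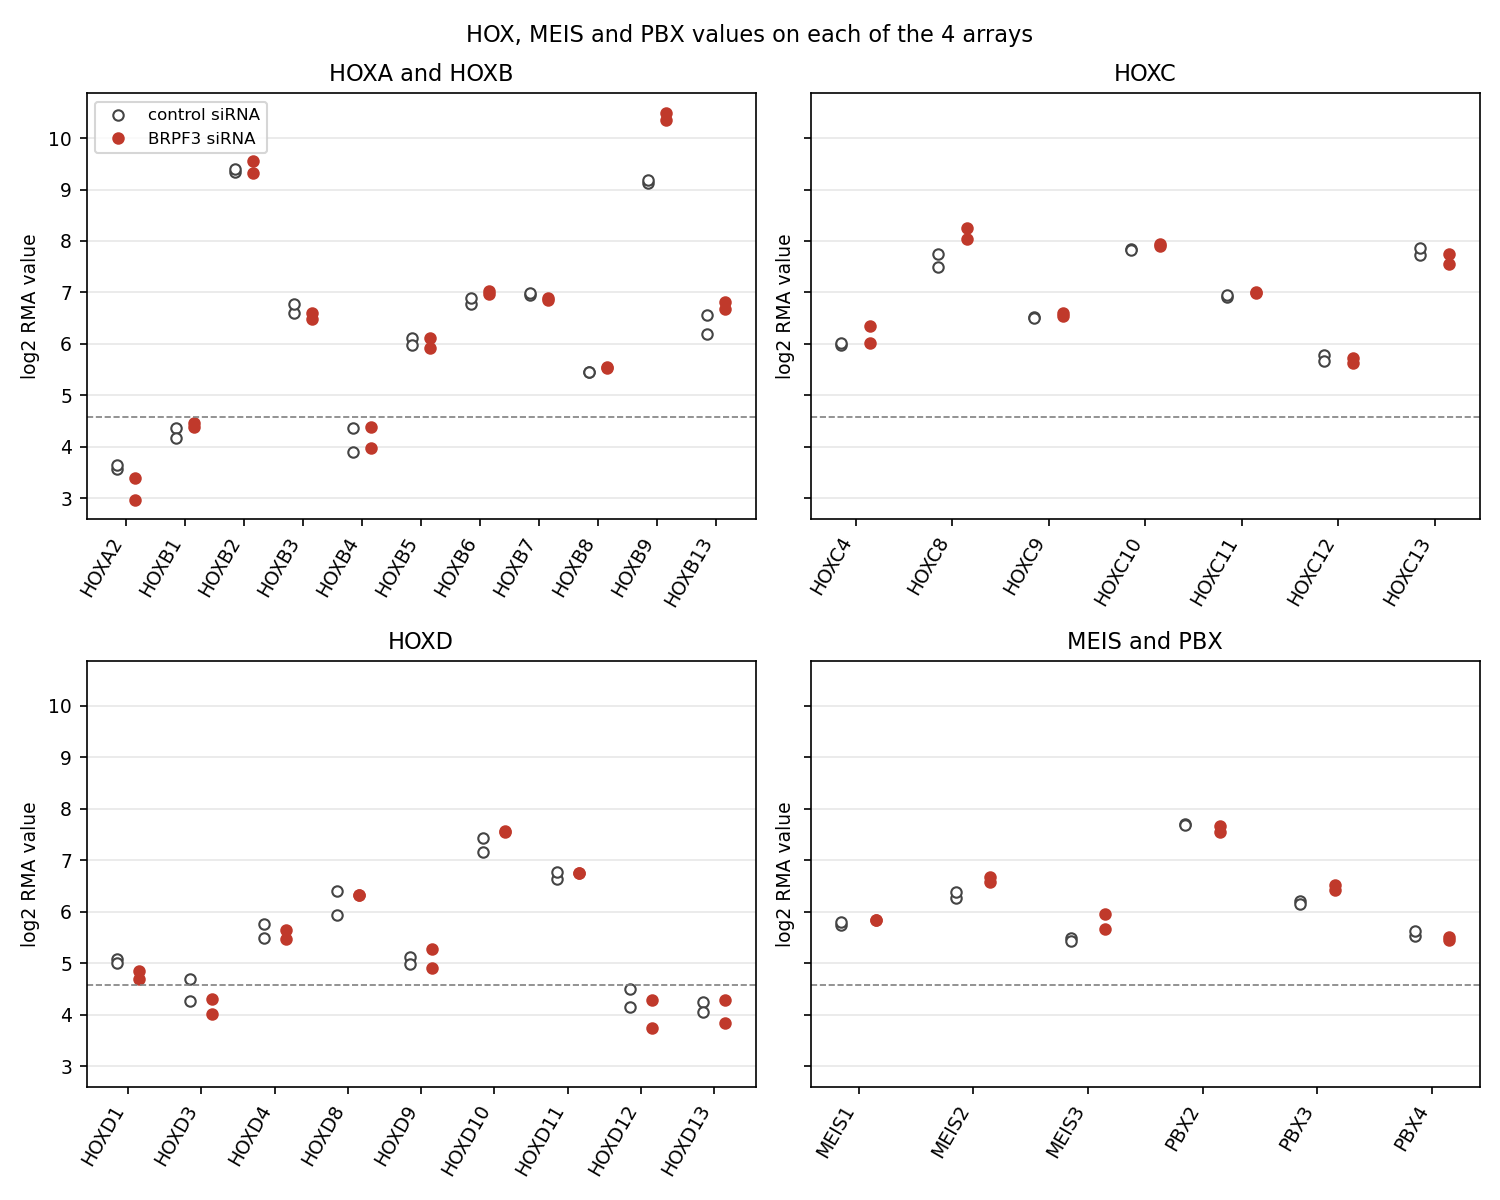
Log2 RMA values of the 33 genes on each array, with open circles for the 2 control siRNA arrays and filled circles for the 2 BRPF3 siRNA arrays. The dashed line marks the median of all probe sets (4.59). HOXB9 shows the widest gap, from 9.12 and 9.18 in controls to 10.35 and 10.49 after BRPF3 siRNA.

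The comparison asked how these genes differ in transcript level after BRPF3 siRNA. HOXB9 and HOXC8 rose, 0 members fell and 25 did not pass the test (limma, Benjamini-Hochberg adjusted p under 0.05 over all 10696 genes tested). In the same fit 15.8% of all tested genes were called, 6.32% risen and 9.44% fallen, against 7.41% of the tested members, so calls were no more frequent among the members than over the whole table. At an unadjusted p under 0.05 there were 6 higher members and 1 lower, 25.9% of the members, against 34.6% of all tested genes (14.8% higher and 19.8% lower). Under every other setting that kept all 4 arrays 0 members fell, but several of these settings leave the differences themselves unchanged. The difference was above 0 for 18 of 27 members (66.7%), against 44.9% of all tested genes. Its median was 0.07 for the members and -0.03 for all tested genes. Both BRPF3 siRNA arrays lay above both control arrays for 14 of 27 members, against 27.3% of all tested genes, and below them for 4 members, against 35.9%. In either direction 18 members had separated arrays, against 63.2% of all tested genes. Quantile normalization turned the split over the whole table from 676 risen and 1010 fallen genes to 764 and 718, with the member counts still 2 and 0. In such bulk RNA, a change in the number of cells with a transcript and a change in transcript per cell cannot be told apart. Counts over related genes on the same 4 arrays are not independent and were given no test.

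**Figure D2:**
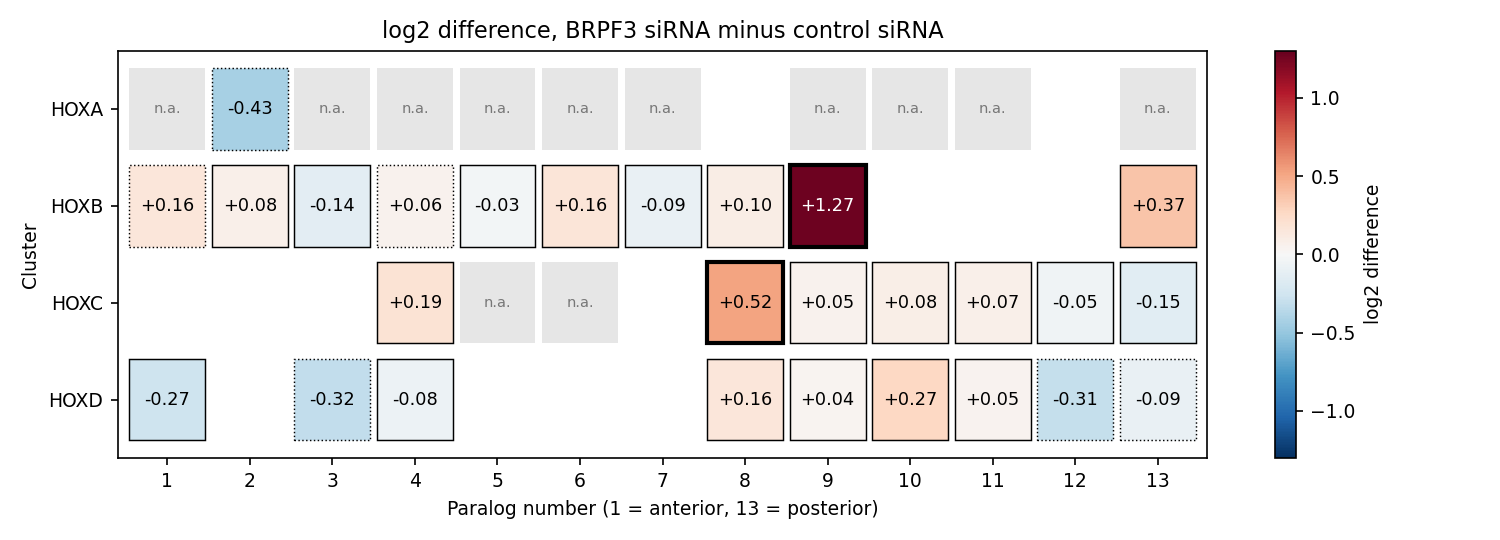
Log2 difference (BRPF3 siRNA minus control siRNA) of each HOX gene by cluster (rows) and paralog number (columns). Heavy frames mark the 2 risen genes, dotted frames genes too dim to be tested, grey squares genes not analysed here, and blank squares numbers not found in the gene table. HOXB9 (1.27) and HOXC8 (0.52) stand beside HOXB8 (0.10) and HOXC9 (0.05).

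HOXB9 is a posterior gene of the HOXB cluster on chromosome 17, of the Abdominal-B type, with a role in the thoracic skeleton and mammary gland. Its values were 9.12 and 9.18 in controls and 10.35 and 10.49 after BRPF3 siRNA, with no overlap. The difference was 1.27 ± 0.09 (± gives the SE from limma's moderated fit here and in later differences; n = 2 per group), a 2.42-fold rise with a 95% interval of 1.06 to 1.49 and an adjusted p of 0.00756 in limma's test. The call was lost without control replicate 1 (adjusted p = 0.0699) or control replicate 2 (adjusted p = 0.0816), while the difference stayed between 1.20 and 1.34 over the 4 fits with an array left out.

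The genes on either side of HOXB9 did not pass. HOXB8, its anterior neighbour, had 5.45 on both control arrays and 5.55 and 5.54 after BRPF3 siRNA, so that the groups were separated, with a difference of 0.10 ± 0.08 with an interval of -0.09 to 0.28. HOXB13, the most posterior gene of the cluster and a lineage factor of the prostate, had 6.56 and 6.19 in controls and 6.82 and 6.67 after BRPF3 siRNA. Its groups did not overlap, but the control arrays differed by 0.37, as much as the group means did (0.37 ± 0.14, adjusted p = 0.122), and with an array left out the difference ran from 0.19 to 0.56. The intervals of HOXB8 and HOXB13 lay wholly below that of HOXB9, and the gaps between the genes were not tested themselves.

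Among the central HOXB genes, HOXB6 had 6.78 and 6.90 in controls and 6.98 and 7.03 after BRPF3 siRNA, a separated difference of 0.16 ± 0.08 (adjusted p = 0.230). HOXB7, widely expressed in tumours, had the opposite sign, from 6.96 and 6.98 to 6.90 and 6.86 (-0.09 ± 0.08, adjusted p = 0.444). HOXB5 had 6.12 and 5.98 in controls and 5.92 and 6.11 after BRPF3 siRNA, with overlapping groups. HOXB2 and HOXB3, hindbrain patterning genes of the anterior end, also overlapped. HOXB2 lay far above the median of all probe sets, with 9.33 and 9.39 in controls and 9.32 and 9.56 after BRPF3 siRNA (0.08 ± 0.11), and HOXB3 had 6.59 and 6.78 against 6.49 and 6.61 (-0.14 ± 0.10). Without HOXB9 the 7 tested HOXB genes ranged from -0.14 to 0.37, with a median of 0.08. In the RefSeq table the span of HOXB3 holds that of HOXB4, and antisense RNAs overlap HOXB2, HOXB3, HOXB5 and HOXB6, whereas HOXB7, HOXB8, HOXB9 and HOXB13 overlap no other gene.

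HOXC8, a central gene of the HOXC cluster on chromosome 12 that patterns the lower thoracic region, was the other risen gene. It had 7.49 and 7.75 in controls and 8.04 and 8.24 after BRPF3 siRNA, which did not overlap. The difference of 0.52 ± 0.12 was a 1.43-fold rise, with an interval of 0.22 to 0.82 and an adjusted p of 0.0428 in limma's test. The arrays of a group differed by 0.26 in controls and 0.20 after BRPF3 siRNA, so this call was close to the threshold. It was lost whichever array was left out (adjusted p 0.0643 to 0.189) and when dim genes were tested too (adjusted p = 0.0931).

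The remaining HOXC genes lay close together in their differences. The posterior genes HOXC9, HOXC10 and HOXC11 differed by 0.05 ± 0.08, 0.08 ± 0.08 and 0.07 ± 0.08 and did not pass limma's test (adjusted p 0.490 to 0.675). Each had both BRPF3 siRNA arrays above both control arrays, as did 27.3% of all tested genes. HOXC10, active in hindlimb and lumbar regions, had 7.85 and 7.83 in controls and 7.94 and 7.90 after BRPF3 siRNA. HOXC4 had 5.98 and 6.01 in controls and 6.36 and 6.02 after BRPF3 siRNA, so a single array carried most of its difference (0.19 ± 0.13). With an array left out its difference ran from 0.02 to 0.36. The terminal genes HOXC12 (-0.05 ± 0.09) and HOXC13 (-0.15 ± 0.10), the latter a regulator of hair keratins, had overlapping arrays. HOXC4 shares its annotated start with HOXC5 and HOXC6, so signal from those genes cannot be told apart from its own by symbol alone.

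Of the 6 tested HOXD genes on chromosome 2, 0 rose and 0 fell, and the differences at the ends of the tested range had opposite signs. HOXD1, the anterior gene, had 5.08 and 5.0 in controls and 4.85 and 4.69 after BRPF3 siRNA, a separated difference of -0.27 ± 0.09 that did not pass (adjusted p = 0.101). HOXD10, a posterior gene of limb and lumbar patterning, had 7.16 and 7.43 in controls and 7.56 and 7.58 after BRPF3 siRNA (0.27 ± 0.11, adjusted p = 0.147), and with an array left out the difference ran from 0.13 to 0.41. The other 4 overlapped between groups: HOXD4 (-0.08 ± 0.12), HOXD8 (0.16 ± 0.15), HOXD9 (0.04 ± 0.14) and HOXD11 (0.05 ± 0.09). HOXD8 had 5.94 and 6.40 in controls, a gap of 0.46, against 6.33 and 6.32 after BRPF3 siRNA. A dimmer probe set of HOXD4 differed by 0.12, of opposite sign to the one used. The annotated spans of HOXD3 and HOXD4 overlap.

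No promoter sequence was available here for the risen genes HOXB9 and HOXC8. Because HOXD1 and HOXD10, which did not pass, were the HOXD genes with separated arrays, the 250 bases before their starts are shown. They come from RefSeq (GRCh38.p14, plus strand), with each CG dinucleotide in capitals. The window of HOXD1 lies at chr2:176188418-176188667 and that of HOXD10 at chr2:176116528-176116777.
HOXD1: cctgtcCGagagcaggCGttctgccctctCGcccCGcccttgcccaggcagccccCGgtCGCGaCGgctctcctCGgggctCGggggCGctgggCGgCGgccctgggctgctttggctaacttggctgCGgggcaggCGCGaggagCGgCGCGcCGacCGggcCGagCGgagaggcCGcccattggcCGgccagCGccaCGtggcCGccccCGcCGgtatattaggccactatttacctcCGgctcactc
HOXD10: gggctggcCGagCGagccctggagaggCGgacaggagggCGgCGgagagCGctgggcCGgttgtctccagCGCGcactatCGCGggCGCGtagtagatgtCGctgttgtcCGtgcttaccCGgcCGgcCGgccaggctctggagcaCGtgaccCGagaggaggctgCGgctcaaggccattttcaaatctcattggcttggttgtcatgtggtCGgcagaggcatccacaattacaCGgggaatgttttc
The HOXD1 window held 31 CG dinucleotides at 74.8% GC and the HOXD10 window 23 at 64.0%, against a median of 11 CG and 58.0% GC over 35114 windows of the same length. For the 17 members with a window in the table (19 windows) the median was 16 CG, from 4 for HOXD4 to 36 for PBX3. Neither printed window held TGATTNAT, a joint PBX and HOX recognition sequence, on either strand. It was found in 3 of the 19 member windows (15.8%), those of HOXA2, HOXD11 and MEIS2, and in 2.48% of all windows. Other sequences were counted too. TTTATNG was found in 3 member windows (15.8%), against 8.93% of all windows, and TGACAG in 2 (10.5%), against 13.03%. TGATTNAT had the widest gap of the sequences counted, and these shares were not tested.

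By position, the 3 tested anterior HOX genes had 0 calls and a median difference of -0.14, the 8 central genes 1 rise (HOXC8) and a median of 0.13, and the 10 posterior genes 1 rise (HOXB9) and a median of 0.06. Over all tested genes 6.32% rose. Both BRPF3 siRNA arrays lay above the controls for 0 of 3 anterior, 4 of 8 central and 6 of 10 posterior genes, against 27.3% of all tested genes. Differences between these shares were not tested. The tested paralogs of the risen genes had smaller estimated differences, and the gaps between paralogs were not tested. In paralog group 9 the difference was 1.27 for HOXB9, 0.05 for HOXC9 and 0.04 for HOXD9, and in group 8 it was 0.52 for HOXC8, 0.10 for HOXB8 and 0.16 for HOXD8. The intervals of HOXC9 (-0.14 to 0.24) and HOXD9 (-0.30 to 0.38) lay below that of HOXB9, whereas those of HOXB8 and HOXD8 (-0.22 to 0.54) overlapped that of HOXC8.

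Of the genes too dim to be tested, HOXA2, a hindbrain and branchial arch gene, had 3.58 and 3.65 in controls and 3.39 and 2.97 after BRPF3 siRNA, and HOXB1 had 4.37 and 4.18 against 4.46 and 4.39. HOXB4, HOXD3, HOXD12 and HOXD13 overlapped between groups. When these genes were included, none of the 6 was called (limma without an intensity filter, adjusted p 0.169 to 0.889), in a setting that called 2.75% of all 14884 genes.

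**Figure D3:**
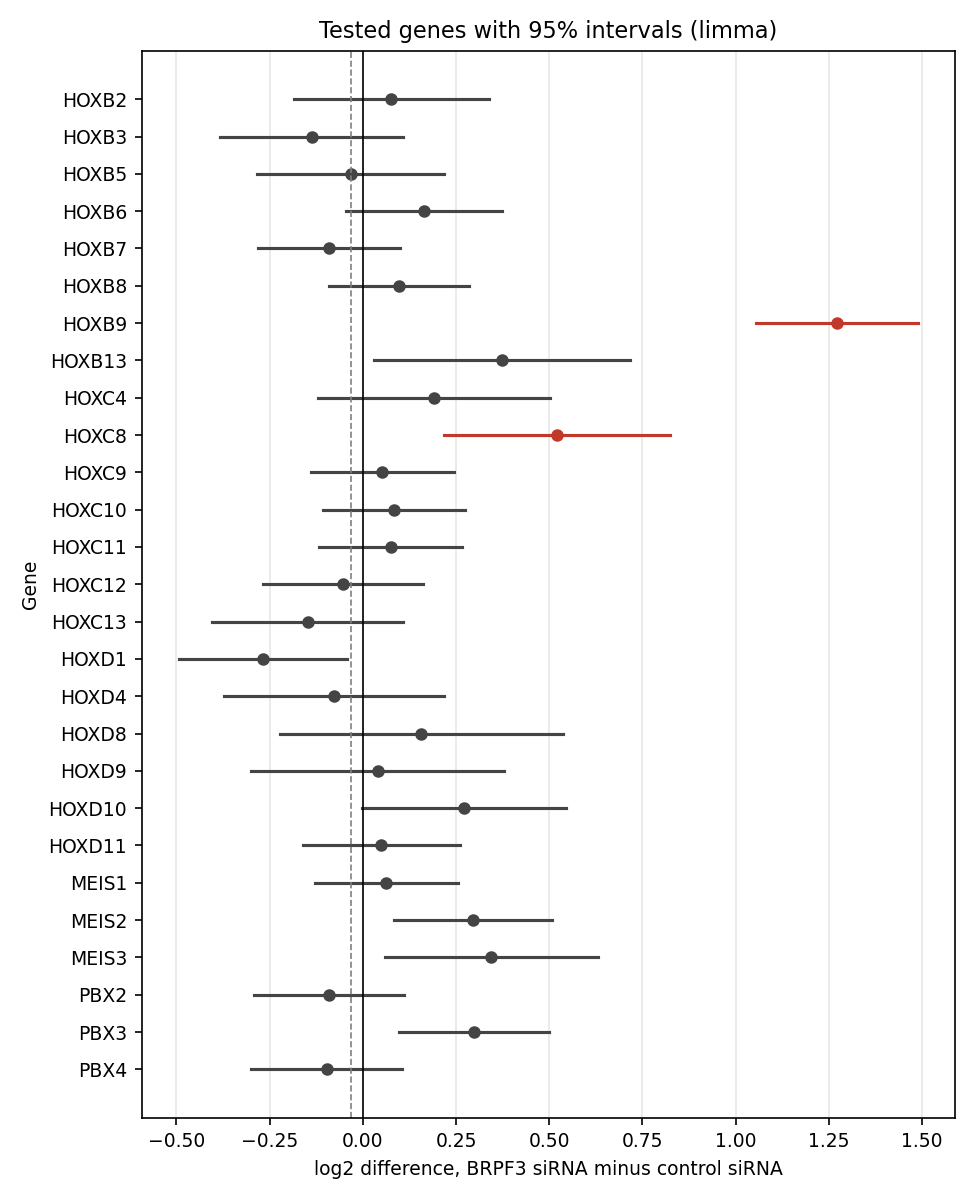
Log2 difference (BRPF3 siRNA minus control siRNA) of the 27 tested genes, as points with 95% intervals from limma. The solid line marks 0 and the dashed line the median of all tested genes (-0.03). The intervals of HOXB9, HOXC8, HOXB13, MEIS2, MEIS3 and PBX3 lie above 0 and that of HOXD1 below, before adjustment over all genes. Such unadjusted intervals clear of 0 were found for 34.6% of all tested genes.

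Among the TALE cofactors 0 of 6 rose and 0 fell. The arrays of all 6 were separated, 4 upward and 2 downward, as were those of 63.2% of all tested genes. PBX3, a HOX partner, came closest to the threshold, with 6.20 and 6.16 in controls and 6.43 and 6.52 after BRPF3 siRNA (0.30 ± 0.08, adjusted p = 0.0614). MEIS2, which acts in limb and heart development, had 6.28 and 6.38 against 6.58 and 6.67 (0.29 ± 0.09, adjusted p = 0.0705), and MEIS3 had 5.48 and 5.44 against 5.66 and 5.95 (0.34 ± 0.12, adjusted p = 0.0978). With an array left out the difference of MEIS3 ran from 0.20 to 0.49. PBX3, MEIS2 and MEIS3 were higher on each BRPF3 siRNA array than on each control array, as were 27.3% of all tested genes. Their adjusted p-values lay between 0.05 and 0.1. Moving the threshold from 0.05 to 0.1 took the called genes of the whole table from 1686 to 2877. MEIS1, a cofactor of HOX proteins in blood stem cells and leukaemia, had 5.75 and 5.81 in controls and 5.84 on both BRPF3 siRNA arrays (0.06 ± 0.08). PBX2 had 7.70 and 7.69 in controls and 7.66 and 7.55 after BRPF3 siRNA (-0.09 ± 0.08), and PBX4 had 5.54 and 5.62 against 5.52 and 5.45 (-0.10 ± 0.08).

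MEIS2 passed when only genes above the 75th percentile were tested (adjusted p = 0.0250). Its other probe set was dim, with a mean of 2.63, and differed by -0.11. PBX2 had 6 probe sets with 3 distinct sets of values, all of them lower after BRPF3 siRNA (-0.13 to -0.09). MEIS3P1, a processed copy of MEIS3 with its own probe set, had a mean of 8.53, against 5.63 for MEIS3. It differed by 0.27 ± 0.09 (adjusted p = 0.0873). How much of either signal belongs to which gene is uncertain and was not tested.

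Other TALE genes, from a list of 11 of which 9 were tested, counted 2 rises and 0 falls, against 6.32% risen and 9.44% fallen over all tested genes. IRX6, an Iroquois factor, had 4.73 and 4.74 in controls and 5.54 and 5.49 after BRPF3 siRNA, a 1.72-fold rise (0.78 ± 0.08, adjusted p = 0.00885). MKX (mohawk), a regulator of tendon cells, had 6.02 and 6.10 against 6.62 and 6.80 (0.65 ± 0.10, adjusted p = 0.0161). The difference was above 0 for 8 of the 9, against 44.9% of all tested genes, with a median of 0.17. The exception was IRX5 (-0.21 ± 0.33), whose BRPF3 siRNA arrays lay at 5.16 and 4.07. PKNOX1, a relative of MEIS that also pairs with PBX, differed by 0.06 ± 0.10.

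Of 14 noncoding RNAs of the clusters named among 23 listed, 7 lay below the median of all probe sets and 7 were tested, with 0 rises and 0 falls in limma's test and 2 at an unadjusted p under 0.05, against 34.6% of all tested genes. HOXA11-AS, antisense to HOXA11, had 5.45 and 5.66 in controls and 6.24 and 5.88 after BRPF3 siRNA (0.51 ± 0.14, adjusted p = 0.0649). HOTAIR, transcribed from the HOXC cluster across HOXC11, had 5.96 and 5.88 against 6.15 and 6.16 (0.24 ± 0.08, adjusted p = 0.0975). HOXA10-AS was the 1 tested RNA of the list with a difference below 0 (-0.15 ± 0.09). The median of the 7 was 0.18.

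The clusters also carry genes of the miR-196 family, microRNAs known to repress central HOX genes such as HOXB8 and HOXC8, so their mature sequences from RefSeq (GRCh38.p14) are shown with the seed, bases 2 to 8, in capitals. MIR196A1 lies between HOXB9 and HOXB13 (mature arm at chr17:48632532-48632553, minus strand), MIR196A2 between HOXC10 and HOXC9 (chr12:53991762-53991783, plus strand) and MIR196B between HOXA9 and HOXA10 (chr7:27169528-27169549, minus strand).
miR-196a-5p: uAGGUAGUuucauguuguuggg
miR-196b-5p: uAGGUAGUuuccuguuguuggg
MIR196A1 and MIR196A2 give the same mature arm, and miR-196b-5p keeps the seed and differs from it by A12C, counted from the 5′ end. Their probe sets report precursor transcripts, not mature microRNAs, and all 3 lay below the median of all probe sets. MIR196B had 4.35 and 4.30 in controls and 4.60 and 4.94 after BRPF3 siRNA, with no overlap. MIR196A2 had 3.84 and 3.78 against 3.73 and 3.48, and MIR196A1 had 4.39 and 4.09 against 3.46 and 4.41 with overlapping groups. None of these was tested, and differences this close to background are compressed.

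Of 20 tested protein-coding genes that lie next to the clusters 2 rose and 1 fell, with a median difference of -0.05. Over all tested genes 6.32% rose and 9.44% fell. HIBADH, a valine catabolic enzyme beyond the posterior end of HOXA, had 8.25 and 8.28 in controls and 8.78 and 8.90 after BRPF3 siRNA (0.58 ± 0.08, adjusted p = 0.0160). CBX1, the heterochromatin protein HP1 beta encoded near HOXB, rose by 0.34 ± 0.08 (adjusted p = 0.0411), and CBX5, HP1 alpha, encoded near HOXC, fell by 0.82 ± 0.11 on the log2 scale (adjusted p = 0.0148). CBX5 had 8.83 and 8.85 in controls and 7.88 and 8.16 after BRPF3 siRNA. EVX2 (0.21 ± 0.10) and EVX1 (-0.05 ± 0.11), homeobox genes at the posterior ends of HOXD and HOXA, did not pass.

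Among 26 tested Polycomb, trithorax and MYST genes, which regulate HOX clusters, 0 rose and 1 fell, against 6.32% and 9.44% of all tested genes. The median difference was -0.03, the same as over all tested genes to this precision. PCGF3, a subunit of a variant Polycomb complex PRC1, had 7.62 on both control arrays and 6.98 and 6.86 after BRPF3 siRNA, a fall by 0.70 ± 0.08 (adjusted p = 0.0123). Its relative PCGF5 differed by -0.30 ± 0.08 (adjusted p = 0.0509). At the upper end the differences of MEN1, menin (0.25 ± 0.08, adjusted p = 0.0835), and the H3K27 demethylase KDM6A (0.28 ± 0.09, adjusted p = 0.0927) did not pass. The PRC2 genes EZH2 (-0.03 ± 0.09) and SUZ12 (0.13 ± 0.09) did not pass either. KMT2A, KAT6A, BRPF1, EED, BMI1 and RNF2 were not analysed here.

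Among 4 tested genes of caudal and retinoid input to the clusters 1 rose, against 6.32% of all tested genes. CRABP2, which carries retinoic acid to its receptors, had 6.68 and 6.57 in controls and 7.46 and 7.39 after BRPF3 siRNA, a 1.74-fold rise (0.80 ± 0.08, adjusted p = 0.00985). CDX1 (-0.13 ± 0.08), CDX2 (0.17 ± 0.10) and the insulator protein CTCF (0.00 ± 0.08) did not pass. The retinoic acid receptor genes were not analysed here.

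**Figure D4:**
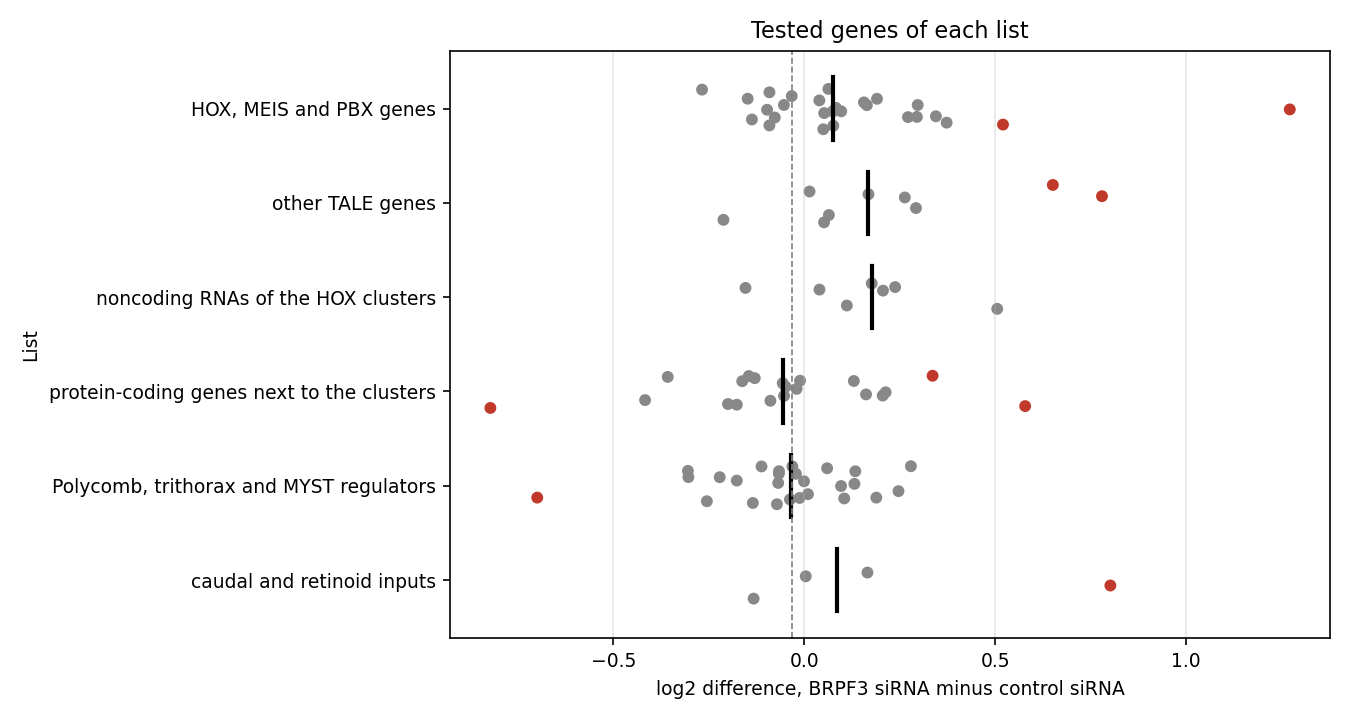
Log2 difference (BRPF3 siRNA minus control siRNA) of each tested gene of the 6 lists, with called genes in red, list medians as black bars and the median of all tested genes (-0.03) as a dashed line. Points are spread vertically for legibility. The list medians run from -0.05 for genes next to the clusters to 0.18 for the clusters' noncoding RNAs.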

How the data were processed

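RNA of 4 samples was hybridised to 1 Affymetrix whole-transcript array each. The authors deposited log2 values of 53617 probe sets, made with RMA per the submitters' processing notes; for the RMA version and settings and for the probe set design, nothing is given in the sources used here. Groups and replicate numbers came from the sample titles. The titles call the arrays of a group biological replicates without saying how far their cultures were kept apart, and p-values rest on the spread of these few arrays alone. A platform annotation named 16098 probe sets, for 14884 genes, and each gene was represented by its probe set with the highest mean over the 4 arrays.

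Genes at or above the median of all probe sets, 4.59, were tested two-sided in limma 3.58.1 under R 4.3.3, by lmFit then eBayes with no trend. The fit had 2 residual and 3.81 prior degrees of freedom, and p-values were adjusted over 10696 genes by the Benjamini-Hochberg method. Intervals are at 95% from the moderated t distribution and not adjusted. An exact permutation test of 2 against 2 arrays cannot approach 0.05. The procedure was tested on simulated data. Alternatives covered normalization, replicate block, variance prior, filter, probe set rule, threshold and each array left out. Every member was described; other listed genes were named where called, or at the extremes of a list by moderated t. Further listed genes (PKNOX1, EZH2, SUZ12, CTCF, EVX1, EVX2, the MIR196 genes) and MEIS3P1 were named for their role after values were seen. Members and lists were chosen with earlier results of these data known.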

Additional observations from a re-analysis of the deposited data

How the results depend on the processing

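Cyclic loess normalization was chosen after the data were seen, and the cause of the shifts below was not tested unless the setting's construction shows it. The count of changed genes, 1686, was 2645 under an intensity trend in eBayes and 409 with no filter on dim genes, where more and dimmer genes were tested, and 2877 at an adjusted p under 0.1, and 0 to 791 with an array left out (0 without either control array). The count of risen HOX and TALE genes, 2, was 1 without an intensity filter, where HOXC8 was lost, 5 at an adjusted p under 0.1, and 0 to 1 with an array left out (again 0 without either control array), where the single array of a group borrows its spread from the other group. The count at or above the median of all probe sets, 27, was 15 at the 75th percentile. With the replicate number as a block 1604 genes changed, among them 2 risen HOX and TALE genes. Same-numbered deviations from the group means correlated at 0.14, which with 2 pairs is no more than a hint. Of 25 uncalled members 18 kept their sign under all 13 or 14 settings run for them. Several of these settings leave the difference unchanged by construction, so only normalization, the probe set rule and leaving out an array could turn a sign. With an array left out, HOXB2 ran from -0.0466 to 0.199, HOXB5 from -0.126 to 0.0607, HOXC12 from -0.110 to 0.00301, HOXD4 from -0.213 to 0.0580, HOXD8 from -0.0718 to 0.384, HOXD9 from -0.141 to 0.220 and HOXD11 from -0.0158 to 0.115. HOXD4 also turned to 0.0233 with the mean of its probe sets.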
